A study of Mus musculus with 4 samples.

Results

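The genes described here encode 10 enzymes that mitochondria use to burn fatty acids, and they were read for DNA modification in the left ventricle of mice after a myocardial infarction. The genes are Cpt1a, Cpt1b, Cpt2, Acadvl, Acadl, Acadm, Hadha, Hadhb, Eci1 and Etfdh, which are 10 of 20665 autosomal protein-coding genes. Each gene was taken as its span in the mm10 mouse genome with 2 kb on either side, and every CCGG site in that window that was listed in all 4 samples was used. This gave 213 sites of 967498 autosomal sites. Hadha and Hadhb lie next to each other and share 3 of them, so the sites add to 216 when they are counted per gene. Another 17 sites of these windows were listed in some samples and not in all 4, and they were left out. The HpaII signal at these 17 sites, where listed, lay between 2.85 and 15.9 with a median of 5.50, against a median of 34.4 over the sites used.

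There were 4 samples of heart DNA, 1 in each group, from C57BL/6 mice of 8 weeks studied 3 days after infarction. The groups were infarcted left ventricle of Neil3-/- mice, non-infarcted left ventricle of Neil3-/- mice, infarcted left ventricle of wild-type mice and non-infarcted left ventricle of wild-type mice. All 4 groups had an infarction, so the non-infarcted tissue is part of an injured heart and not a healthy control. The labels do not give the number of animals in a sample. Neil3 is a DNA glycosylase, an enzyme that removes damaged bases from DNA, and it is lost in the Neil3-/- mice.

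Fatty acids are the main fuel of the adult heart. Long-chain fatty acids are coupled to carnitine on the outer mitochondrial membrane, carried in, and handed back to coenzyme A. They are then shortened in repeated rounds of dehydrogenation, hydration, a further dehydrogenation and cleavage, and the electrons taken out go through flavoproteins to the respiratory chain. Most of these genes are strongly expressed in heart muscle cells, and expression of the pathway is known to fall in the injured and failing heart. No RNA was measured here.

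Each sample was read with 3 libraries. HpaII cuts CCGG only where the inner cytosine is unmodified, so its library counts unmodified sites. MspI cuts the site whether or not that cytosine is methylated or hydroxymethylated, and its library stands for all copies of the site. The third library, called C+mC here, was cut with MspI after glucosylation, which protects hydroxymethylated sites. The HpaII signal as a percentage of the MspI signal therefore goes up where fewer copies are modified, and the C+mC signal as a percentage of MspI goes down where more copies are hydroxymethylated. Both percentages are relative, because the deposited libraries of a sample have similar totals, and a gene can exceed 100%. A gene's percentage is the sum of its sites in one library over the sum in MspI.

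The summed signal of a library over all sites ranged from 34161766 to 43985354, and the counts behind these values are unknown, so the depth of a single site cannot be given. The C+mC library of the wild-type non-infarcted sample stood apart, with a 95th percentile of 168% of MspI over 16887 genes with at least 5 sites, against 139% to 146% in the other samples. Every C+mC comparison below that uses this sample carries that difference. With 1 sample a group, a difference between 2 samples has no replicate check. Differences of at least 20 percentage points were counted, and the share of the 16887 genes past the same size is given beside each count. In bulk tissue, a shift in the mix of cell types and a change in the modification of a given cell type cannot be told apart.

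The stretch just before the transcription start is shown first, since CCGG sites near the start had the highest HpaII percentages of most of these genes. The 250 bases before the start were found in RefSeq (GRCm38.p6, the same coordinates as mm10) for 9 of the 10 genes, all but Cpt1b. The letters CCGG, which read the same on both strands, were present in 8 of these 9 windows and in 47.8% of 31396 such windows of autosomal genes. Cpt1a had none, and the CCGG sites of the Hadha, Hadhb and Eci1 windows were not among the sites listed in all 4 samples. The 5 windows that held measured sites are printed on the strand of the gene, with the measured CCGG in capitals, because the values that follow refer to them. They lie at chr3:153944644-153944893 on the minus strand for Acadm, chr1:66863310-66863559 on the minus strand for Acadl, chr11:70015429-70015678 on the minus strand for Acadvl, chr4:107923590-107923839 on the minus strand for Cpt2 and chr3:79628768-79629017 on the minus strand for Etfdh.
Acadm: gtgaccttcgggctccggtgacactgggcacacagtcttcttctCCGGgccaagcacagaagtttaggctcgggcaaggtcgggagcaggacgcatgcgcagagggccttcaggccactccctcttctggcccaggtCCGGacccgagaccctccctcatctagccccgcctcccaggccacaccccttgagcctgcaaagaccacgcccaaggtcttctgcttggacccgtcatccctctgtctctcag
Acadl: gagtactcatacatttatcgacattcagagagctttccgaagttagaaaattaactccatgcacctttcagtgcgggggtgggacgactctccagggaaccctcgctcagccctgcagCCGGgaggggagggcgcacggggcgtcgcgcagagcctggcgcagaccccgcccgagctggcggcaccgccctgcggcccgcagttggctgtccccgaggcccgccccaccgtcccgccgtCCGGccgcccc
Acadvl: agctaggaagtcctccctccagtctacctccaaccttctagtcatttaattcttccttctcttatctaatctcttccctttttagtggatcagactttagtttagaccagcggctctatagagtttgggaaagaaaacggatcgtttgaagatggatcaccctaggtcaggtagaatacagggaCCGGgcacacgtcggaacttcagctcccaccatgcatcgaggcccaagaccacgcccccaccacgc
Cpt2: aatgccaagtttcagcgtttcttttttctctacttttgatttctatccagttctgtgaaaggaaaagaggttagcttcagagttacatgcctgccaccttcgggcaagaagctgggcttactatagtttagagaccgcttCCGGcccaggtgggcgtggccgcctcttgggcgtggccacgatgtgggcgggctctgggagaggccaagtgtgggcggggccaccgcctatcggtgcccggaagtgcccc
Etfdh: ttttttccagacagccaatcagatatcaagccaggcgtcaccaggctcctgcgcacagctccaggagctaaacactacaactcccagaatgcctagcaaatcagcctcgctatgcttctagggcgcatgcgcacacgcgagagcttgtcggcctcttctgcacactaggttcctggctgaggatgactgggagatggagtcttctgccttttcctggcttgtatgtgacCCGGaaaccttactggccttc

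In the Acadm window, the site farther from the start, at chr3:153944846, had HpaII signals of 110% and 106% of MspI in the Neil3-/- infarcted and non-infarcted samples, against 123% and 117% in the wild-type infarcted and non-infarcted samples. Its C+mC signal was 99.7% and 105% of MspI in the same 2 Neil3-/- samples, against 71.7% and 55.5% in the 2 wild-type samples. The nearer Acadm site, at chr3:153944753, had 488% and 367% HpaII in Neil3-/- and 342% and 453% in wild type, over an MspI signal of only 24.2 to 26.8. The Acadl site 8 bases from the start, at chr1:66863317, varied little, with 178%, 154%, 158% and 159% HpaII in the order Neil3-/- infarcted, Neil3-/- non-infarcted, wild-type infarcted and wild-type non-infarcted. The other Acadl site, at chr1:66863438, had 398%, 487%, 821% and 746% HpaII and 162%, 150.1%, 221% and 482% C+mC in that order, over a weak MspI signal of 11.3 to 23.2. The single Acadvl site, at chr11:70015491, had 571%, 709%, 686% and 944% HpaII in that order. It was the highest site of its gene among those with an MspI signal of at least 10 in each sample. The Cpt2 site, at chr4:107923696, had 115%, 139.6%, 151% and 138%, and the Etfdh site, at chr3:79628785, had 356%, 358%, 621% and 321%. All 7 sites thus had more HpaII than MspI signal in every sample.

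Over whole genes, the set spanned a wide range in both libraries. The median of the 10 genes was 118% HpaII in the Neil3-/- infarcted sample, 124% in the Neil3-/- non-infarcted, 121% in the wild-type infarcted and 113% in the wild-type non-infarcted sample, close to the medians of 119%, 117%, 119% and 114% over the 16887 genes. Acadvl had the highest mean over the 4 samples in both libraries, with 168% HpaII and 165% C+mC. Hadhb was lowest in both, and in each sample, with means of 51.8% and 50.9%. Hadhb lay below the 5th percentile of all genes in both libraries in every sample, at 67.3% to 71.6% for HpaII and 71.0% to 76.3% for C+mC.

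**Figure D1:**
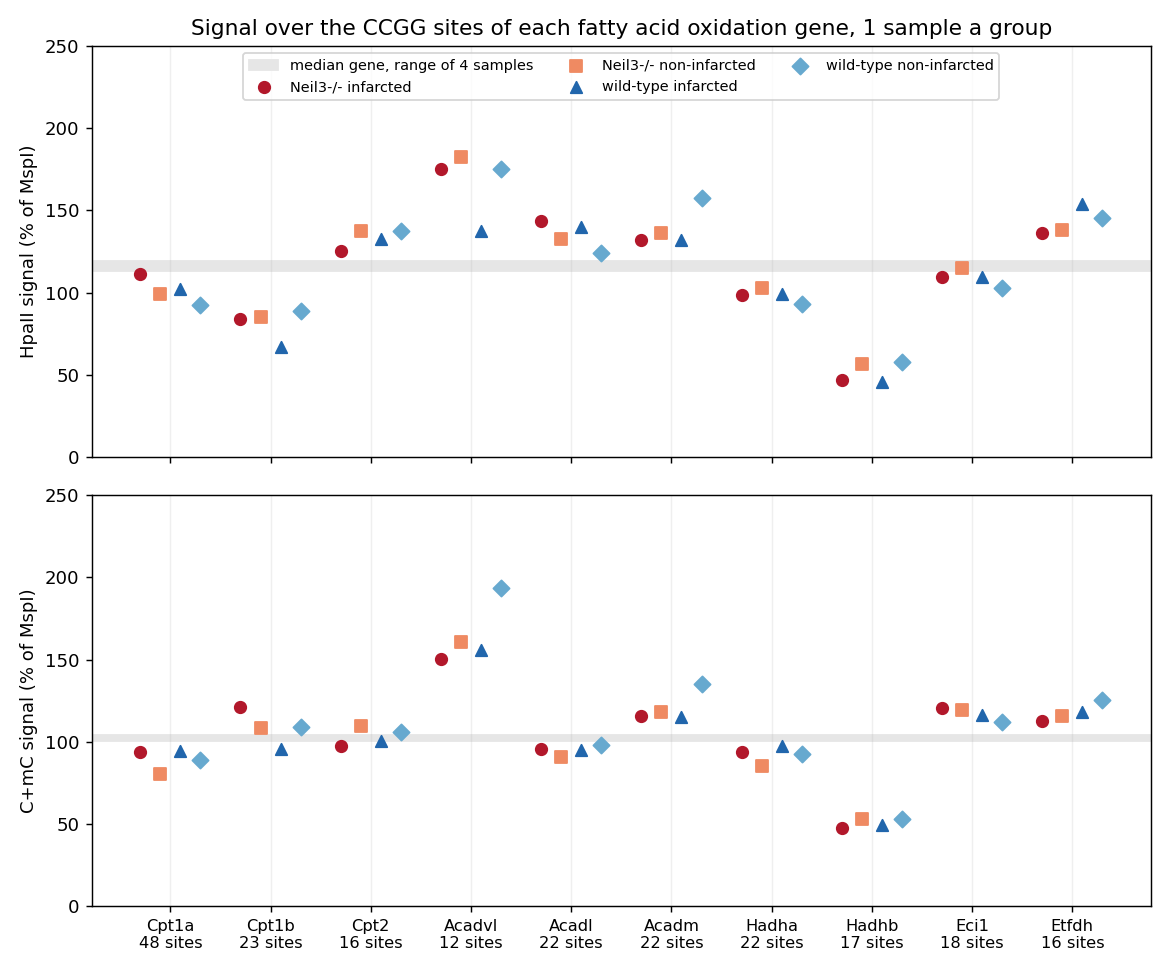
HpaII signal (upper panel) and C+mC signal (lower panel) of each gene as a percentage of its MspI signal, 1 point per sample, with the number of CCGG sites under each gene; the grey band spans the median gene of the 4 samples. Hadhb stands lowest in all 4 samples and both panels, and the wild-type infarcted point of Acadvl (137%) and of Cpt1b (67.3%) lies below the other 3 of the gene in the HpaII panel.

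The carnitine shuttle is made by Cpt1a, Cpt1b and Cpt2. Cpt1a, at chr19:3322326-3385735 and the carnitine palmitoyltransferase of liver and many other tissues, had 111% HpaII in the Neil3-/- infarcted sample against 99.3% in the non-infarcted, and 102% in the wild-type infarcted sample against 92.7% in the non-infarcted. The infarcted sample was thus higher in both genotypes, by 12.1 and 9.49 points, and the Neil3-/- sample was higher in both tissues, by 9.21 and 6.58 points. Its C+mC signal was 94.0% in the Neil3-/- infarcted sample against 80.3% in the non-infarcted, and 94.2% in the wild-type infarcted sample against 89.0% in the non-infarcted. In each library both infarcted samples lay above both non-infarcted ones, as in 35.4% of all genes for HpaII and 14.04% for C+mC. Cpt1b, at chr15:89416405-89425862, is the muscle form and the main one in the adult heart. It had 83.9% HpaII in the Neil3-/- infarcted sample, 85.1% in the Neil3-/- non-infarcted, 67.3% in the wild-type infarcted and 89.2% in the wild-type non-infarcted sample. The wild-type infarcted sample was alone in lying low, 21.9 points below its non-infarcted partner, while the Neil3-/- pair differed by -1.25 points. In C+mC the Cpt1b values were 121%, 108.5%, 95.9% and 108.9% in the same order, so the infarcted samples lay at the 2 ends and the non-infarcted samples together between them. Of the 23 Cpt1b sites, 3 lie in the neighbouring gene Chkb. Cpt2, at chr4:107903982-107923589, releases the fatty acid from carnitine inside the mitochondrion. It had 125% and 137% HpaII in the Neil3-/- infarcted and non-infarcted samples, against 133% and 137% in the wild-type pair, and its largest differences were those of the Neil3-/- pair, -12.0 points in HpaII and -11.6 points in C+mC.

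The acyl-CoA dehydrogenases carry out the opening step of each round and divide the work by chain length. Acadvl, the very long-chain enzyme at chr11:70010183-70015428, had 175%, 182%, 137% and 175% HpaII in the Neil3-/- infarcted, Neil3-/- non-infarcted, wild-type infarcted and wild-type non-infarcted samples. Again the wild-type infarcted sample was the low one, 38.0 points below the wild-type non-infarcted and 38.1 points below the Neil3-/- infarcted sample. Its C+mC values were 151%, 161%, 156% and 193.5%, and there the wild-type non-infarcted sample, whose C+mC library stood apart, was the high one. Only 6 of the 12 Acadvl sites lie inside the gene, and the others include 4 in Dvl2 and 1 in Dlg4. Over the 6 sites inside the gene the HpaII values were 127%, 113%, 105% and 122% and the C+mC values 130.2%, 140.3%, 151% and 140.3%. The wild-type infarcted sample then stood 16.7 points below the non-infarcted one in HpaII and 10.4 points above it in C+mC. The 6 sites outside the gene gave 241%, 277%, 173% and 247% HpaII, so the wild-type infarcted sample lay farthest below the others in the flanks. Acadl, the long-chain enzyme at chr1:66830839-66863309, had 144% HpaII in the Neil3-/- infarcted sample against 133% in the non-infarcted, and 140.0% in the wild-type infarcted sample against 124% in the non-infarcted. The infarcted sample was higher in both genotypes, as for Cpt1a, by 11.1 and 16.0 points. Acadl C+mC stayed between 90.9% and 98.3%. Acadm, the medium-chain enzyme at chr3:153922353-153944643 whose deficiency is a well-known inherited disorder, had 132%, 136%, 132% and 158% HpaII in the 4 samples, and 116%, 118%, 115% and 135% C+mC. In both libraries the wild-type non-infarcted sample was the high one and the other 3 lay close together. The wild-type infarcted sample was 25.7 points below it in HpaII and the Neil3-/- non-infarcted sample 21.4 points below it.

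The trifunctional protein carries out the later steps of each round on long chains. Its alpha subunit Hadha, at chr5:30119423-30154980, had 98.8%, 103%, 99.1% and 93.3% HpaII in the Neil3-/- infarcted, Neil3-/- non-infarcted, wild-type infarcted and wild-type non-infarcted samples. These span 9.52 points, the narrowest HpaII range of the 10 genes. Its beta subunit Hadhb, at chr5:30155253-30184593, starts from the same short stretch of DNA in the opposite direction and was the gene with the least HpaII signal, at 47.1% in the Neil3-/- infarcted sample against 56.5% in the non-infarcted, and 46.0% in the wild-type infarcted sample against 57.8% in the non-infarcted. Both infarcted samples lay below both non-infarcted ones, as also in HpaII for Acadm, Cpt1b and Cpt2. That order held for 4 of the 10 genes and for 9.36% of all genes at the deposited scaling. The low HpaII level of Hadhb rested on 1 of its 17 sites. That site, at chr5:30172975 and 17722 bases past the start, had a mean MspI signal of 999.6 and held 59.9% of the MspI signal of the gene. Its HpaII signal was 15.3% of MspI in the Neil3-/- infarcted sample against 21.8% in the non-infarcted, and 14.5% in the wild-type infarcted sample against 24.7% in the non-infarcted. Without it Hadhb had 91.5%, 112%, 97.3% and 104% HpaII in the 4 samples, so the infarcted samples were still the lower ones, by 20.1 points in Neil3-/- and 6.61 points in wild type. Its C+mC signal without that site was 70.0%, 76.4%, 71.4% and 75.7%. With the strongest site of each gene left out, Hadhb was still the lowest of the 10 genes in C+mC in each sample.

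Eci1 and Etfdh serve the pathway from the side. Eci1, at chr17:24426683-24439316, moves double bonds so that unsaturated fatty acids can be broken down. It had 109.9% and 115% HpaII in the Neil3-/- infarcted and non-infarcted samples, against 109% and 103% in the wild-type pair, and 121%, 119.5%, 116% and 112% C+mC in the same order. Its differences stayed under 13 points in both libraries. Both directions occurred only for infarction in HpaII, with -5.32 points in Neil3-/- and 6.58 points in wild type. Both Neil3-/- samples lay above both wild-type samples, as in 21.6% of all genes for HpaII and 16.5% for C+mC. Etfdh, at chr3:79603788-79628767, passes the electrons of the acyl-CoA dehydrogenases on to ubiquinone. It had 136% and 138% HpaII in the Neil3-/- infarcted and non-infarcted samples, against 154% and 146% in the wild-type pair, and C+mC values of 113% and 116% in Neil3-/- and 118% and 125% in wild type. Both Neil3-/- samples lay below both wild-type samples, as in 9.001% of all genes for HpaII and 14.01% for C+mC. Of its 16 sites 5 lie outside the gene, and over the 11 inside it the HpaII values of 120% and 110% in Neil3-/- and 112% and 114% in wild type overlapped.

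The infarcted against non-infarcted comparison asked how the injured muscle differed within each genotype. In Neil3-/- hearts no gene of the set reached 20 points in HpaII in either direction, where 6.82% of all genes were higher and 2.82% lower by that much, and none did in C+mC, where 1.69% were higher and 3.53% lower. In wild-type hearts 3 genes were lower in HpaII, Acadvl by 38.0, Acadm by 25.7 and Cpt1b by 21.9 points, and none was higher, whereas among all genes 12.1% were higher and 3.28% lower. In C+mC, Acadvl was lower by 37.9 points and no gene was higher, where 16.9% of all genes were lower and 2.12% higher. Over the median of the per-site percentages in place of the sums, the wild-type difference of Acadm was -6.88 points. The median difference of the 10 genes in HpaII was -4.22 points in Neil3-/- and 0.582 points in wild type, against medians of 2.09 and 4.84 points over all genes. With equal totals the wild-type median of the 10 was -3.95 points. In C+mC it was -0.434 and -4.16 points, against 0.127 and -3.34 points over all genes.

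The 2 genotypes share no sample in this comparison, so a gene can be followed in both. Acadm, Acadvl, Hadhb, Cpt1b and Cpt2 were lower in HpaII in the infarcted sample of both genotypes, which is 5 of 10 genes where 15.3% of all genes were lower in both. Acadl and Cpt1a were higher in both, 2 of 10 genes where 45.7% of all genes were. Hadha, Eci1 and Etfdh had opposite signs. These signs were the same with equal library totals and relative to the median gene, but over the gene span alone Acadvl was 13.7 points higher in Neil3-/- and Etfdh 10.2 points higher in Neil3-/- and -2.57 points different in wild type, and with the median of sites Acadm was 10.3, Acadvl 41.9 and Eci1 9.52 points higher in Neil3-/- and Etfdh -18.3 points different in wild type. Etfdh was also 0.299 points higher in Neil3-/- when weak sites were left out. The shares of all genes moved with the scaling: 27.6% were lower and 30.2% higher in both with equal totals, and 29.2% each relative to the median gene. In C+mC 3 of the 10 genes were higher in both, 5 were lower in both and 2 had opposite signs, where 21.4%, 31.9% and 46.7% of all genes did. The 2 were Cpt1b, with 12.8 points in Neil3-/- and -13.0 points in wild type, and Acadl, with 4.86 and -3.07 points, and the difference between genotypes was not tested. The only test that the design allows treats the 4 samples as 2 against 2 and takes genotype as a second term, which leaves 1 residual degree of freedom. With limma on log2 ratios and Benjamini-Hochberg adjustment over the 16887 genes, no gene passed an adjusted p of 0.05 for infarction in either library (0 of 16887). At an unadjusted p under 0.05 there were 12.6% of all genes in HpaII and 6.18% in C+mC, and 2 and 0 of the 10 genes. The 2 were Hadhb, with a log2 change of -0.30 (SE 0.065, adjusted p = 0.249 by limma), and Cpt1a, with 0.15 (SE 0.064, adjusted p = 0.396 by limma). For Hadhb without the strong site the log2 change was -0.19 (SE 0.078, adjusted p = 0.397 by limma).

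Marker genes of heart cell types differed between the same samples. Over 12 cardiomyocyte markers the summed HpaII signal was 95.5% of MspI in the Neil3-/- infarcted sample against 102% in the non-infarcted, and 87.8% in the wild-type infarcted sample against 97.9% in the non-infarcted, and 10 of 12 were lower in the infarcted sample in each genotype. Among all genes 38.8% were lower in HpaII in Neil3-/- and 30.9% in wild type. Over 11 measured leukocyte markers of 12 the summed signal was 129% against 118% in Neil3-/- and 131% against 115% in wild type, infarcted against non-infarcted. Of the 11, 10 and 9 were higher and 1 and 2 lower, to be read beside the same shares of all genes. Over 7 measured fibroblast markers of 8 it was 141% against 134% and 148% against 128%, and over 8 endothelial markers 116% against 116% and 113% against 112%. Of the 7 fibroblast markers 1 was lower in each genotype. Of the 8 endothelial markers 5 were lower in Neil3-/- and 6 in wild type. The markers are read here as DNA, so that all of them were present in every sample and none marks a cell type by its absence. The part of cell composition in the differences of the fatty acid oxidation genes was not tested.

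The Neil3-/- against wild-type comparison asked how hearts without the glycosylase differed in each tissue. In infarcted tissue Acadvl was higher in HpaII by 38.1 points in Neil3-/-, and no gene was lower, where 4.42% of all genes were higher and 6.15% lower. Cpt1b was higher in C+mC by 25.5 points and none was lower, where 3.55% of all genes were higher and 2.38% lower. In non-infarcted tissue Acadm was lower in HpaII by 21.4 points and none was higher, where 3.71% of all genes were lower and 4.55% higher. In C+mC Acadvl was lower by 32.9 points and none was higher, where 11.9% of all genes were lower and 2.42% higher. Over the sites inside the gene Acadvl had 140.3% C+mC in both non-infarcted samples, and over the sites inside each gene Acadm was the gene past 20 points, with 112% in Neil3-/- against 149% in wild type, a difference of -37.2 points. No gene passed 20 points in the same library in both tissues. For Acadm the HpaII difference in non-infarcted tissue was -15.1 points over the 18 sites inside the gene and 2.60 points with the median of sites, and for Cpt1b the C+mC difference in infarcted tissue was 19.7 points without its site of strongest MspI signal. The median differences of the 10 genes in HpaII were 0.883 points in infarcted and 3.21 points in non-infarcted tissue, against 0.476 and 3.03 points over all genes, and in C+mC -1.05 and -7.30 points, against 1.70 and -1.97. The shares of all genes depend on the scaling of the libraries, and the counts of the 10 genes past 20 points did not change with it. With the libraries of a sample set to equal totals, 4.68% of all genes were higher and 3.39% lower in HpaII in infarcted against non-infarcted Neil3-/- tissue, 6.67% and 5.61% in the same comparison in wild type, and 2.35% and 5.65% in Neil3-/- against wild-type non-infarcted tissue. Relative to the median gene, 3.71% were higher and 13.4% lower in C+mC in infarcted against non-infarcted wild-type tissue, and 2.77% and 3.06% in Neil3-/- against wild-type infarcted tissue. In limma 0 of the 10 genes passed for genotype, at an adjusted p of 0.05 or at an unadjusted p under 0.05, in either library. Among all genes 0.0118% passed in HpaII after adjustment and 6.63% before it, and in C+mC 0 genes and 4.06%.

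**Figure D2:**
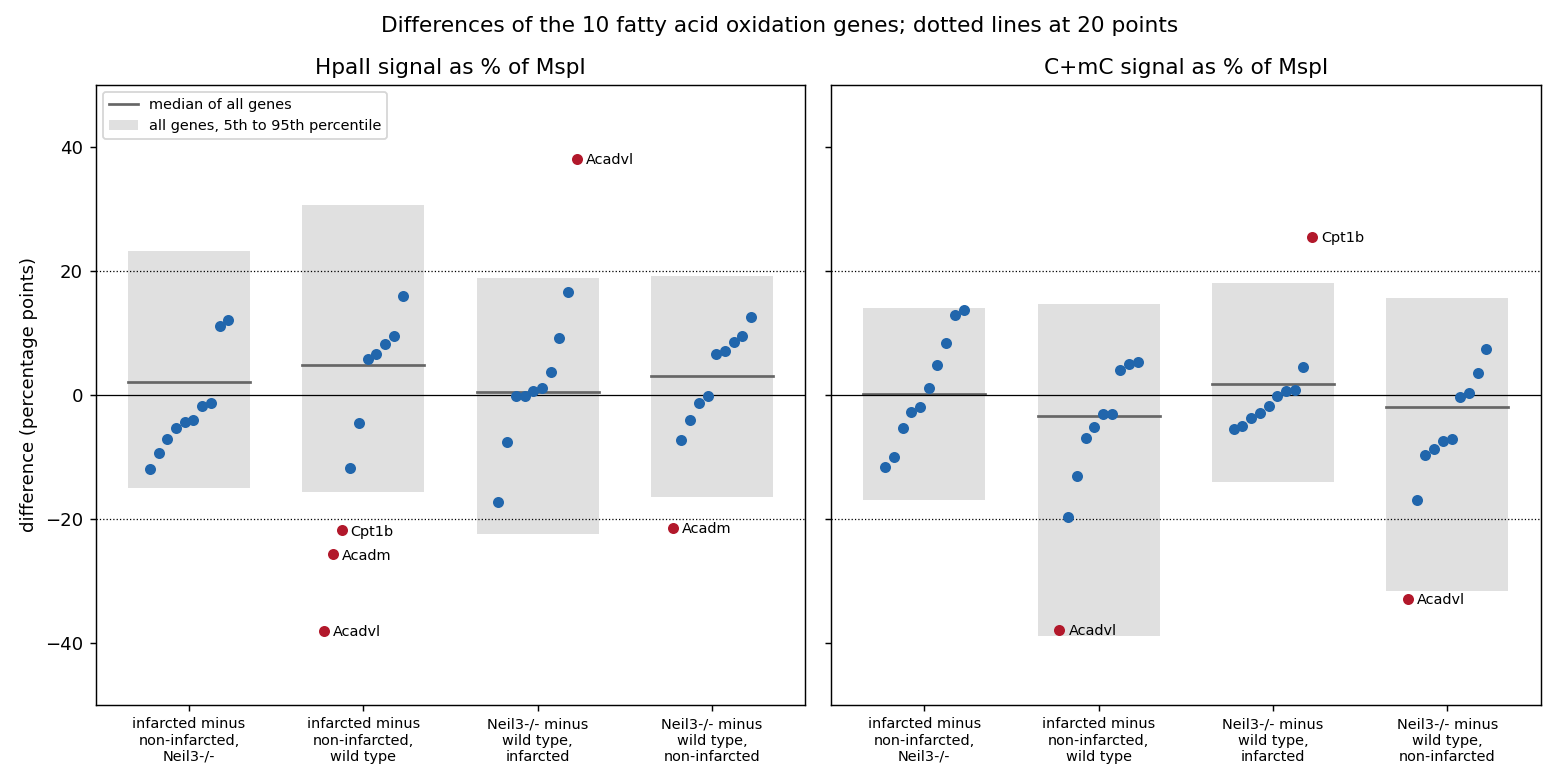
Differences in HpaII (left) and C+mC (right) signal, in percentage points of MspI, for the 4 pairs of samples, 1 point per gene; grey bars span the 5th to 95th percentile of 16887 genes and red points are the genes past 20 points. Acadvl is past 20 points in 4 of the 8 columns, and the Neil3-/- infarcted minus non-infarcted columns hold no red point.

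Sites within 1 kb of the transcription start had more HpaII signal relative to MspI than the remaining sites of the same gene in 10 of 10 genes in each of the 4 samples. This is shared with most genes, since it held for 90.8% to 91.3% of 8394 genes with at least 3 sites near a known start and 3 elsewhere. Hadha, Hadhb and Cpt1a had fewer than 3 sites near the start and Cpt1b had no known start. They do not meet that rule. The medians over the 10 genes near the start were 245%, 224%, 249% and 252% in the Neil3-/- infarcted, Neil3-/- non-infarcted, wild-type infarcted and wild-type non-infarcted samples, and those of the remaining sites 88.7%, 93.2%, 86.3% and 85.9%. In C+mC the difference was smaller, with 130.3%, 151%, 137% and 175% near the start and 94.6%, 89.7%, 94.6% and 88.9% elsewhere, and it held for 8 or 9 of the 10 genes, where it held for 79.1% to 85.2% of the 8394 genes. Etfdh had the least contrast in HpaII, with 154%, 158%, 188% and 163% near its start against 119%, 120.0%, 124% and 128% elsewhere. Hadhb had the most, with 587% to 1236% over 2 sites near the start and 34.5% to 49.7% over the other 15. For Cpt1b the end of the gene with more sites stood in for its start. The high percentages had weak MspI signals under them: across the 213 sites the Spearman correlation of the mean HpaII percentage with the mean MspI signal was -0.56, and MspI is the denominator of that percentage.

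**Figure D3:**
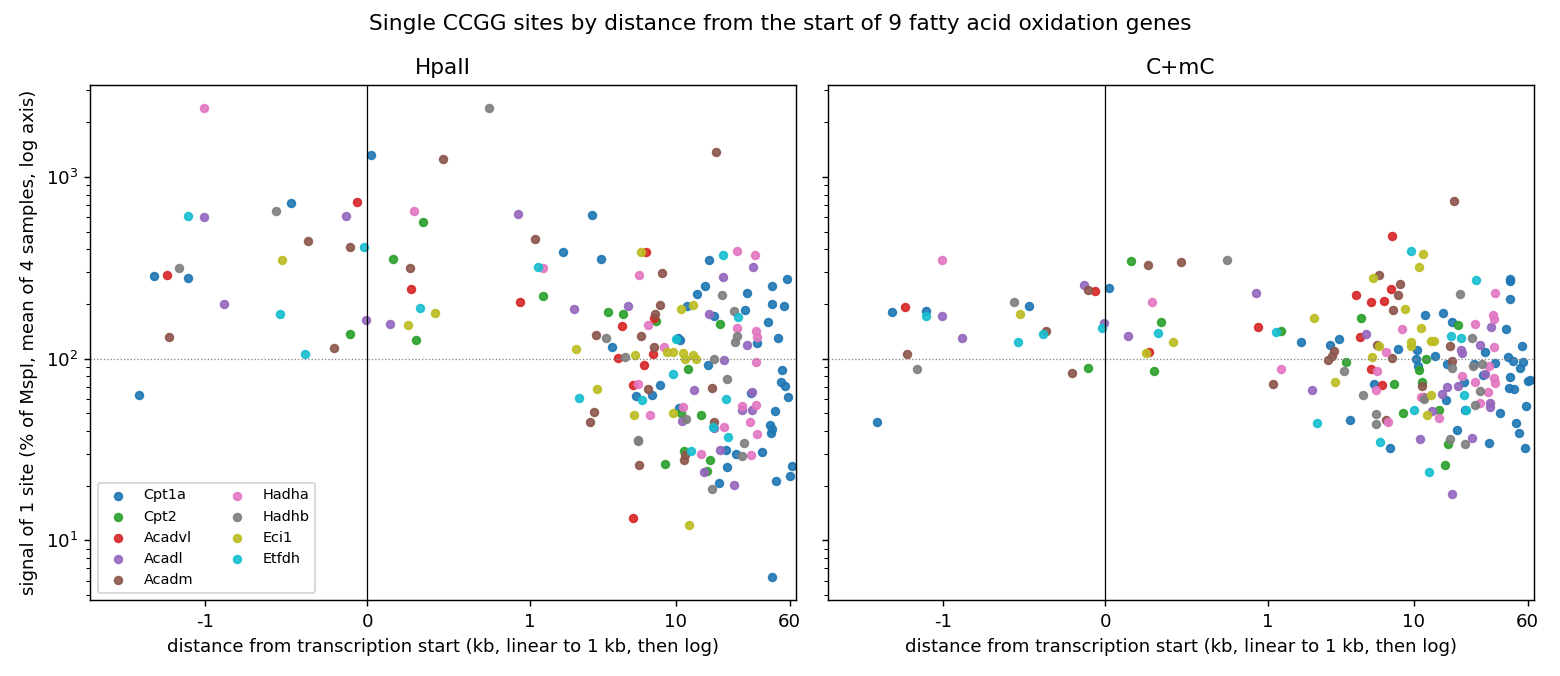
HpaII (left) and C+mC (right) signal of single CCGG sites as a percentage of MspI, mean of the 4 samples on a log axis, against distance from the transcription start for 9 genes (Cpt1b not drawn). In the HpaII panel the sites within 1 kb of the start lie above 100%, while sites in the gene bodies run from 6.29% upward.

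The most and least cut sites with an MspI signal of at least 10 in each sample show the range within a gene. Weaker sites could lie higher. The Cpt1a site at chr19:3323326 had 1026% to 1748% HpaII over an MspI signal of 3.79 to 5.63. In Cpt1a the site at chr19:3322828, 473 bases before the start, had 680.2%, 764%, 473% and 965% HpaII in the Neil3-/- infarcted, Neil3-/- non-infarcted, wild-type infarcted and wild-type non-infarcted samples. In the same gene the site at chr19:3369094, in the gene body, had 3.75%, 6.64%, 6.85% and 7.92%, the lowest of all 10 genes, with a C+mC signal of 102%, 85.4%, 85.0% and 43.1%. Acadvl had its lowest site at chr11:70010368, with 21.5%, 15.1%, 5.08% and 11.1%, and Eci1 at chr17:24438890, with 22.4%, 8.67%, 10.3% and 6.80%. Acadl had its lowest at chr1:66838303, where the wild-type infarcted sample stood out with 48.9% against 11.0%, 13.5% and 7.12% in the Neil3-/- infarcted, Neil3-/- non-infarcted and wild-type non-infarcted samples. The lowest sites of Acadm, Hadha, Cpt1b and Cpt2 had means over the 4 samples of 25.9%, 29.5%, 18.8% and 23.9%. The highest sites of Acadm, Acadl, Cpt1b, Cpt2 and Eci1 had means of 453%, 624%, 537%, 561% and 351%, and those of Hadha, Hadhb and Etfdh 287%, 223% and 414%. The steadiest of these was that of Cpt2, at chr4:107923246 and 343 bases into the gene, with 578%, 566%, 556% and 545%.

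The order of the sites was kept between samples. Across the 182 sites with an MspI signal of at least 10 in each sample, the Spearman correlation between any 2 samples was 0.85 to 0.91 for HpaII and 0.79 to 0.85 for C+mC, as a description over sites that share their libraries. The SD between sites was 1.35 on the log2 scale for HpaII, against a pooled SD of 0.50 between the 4 samples at a site, and for C+mC the values were 0.89 and 0.43.

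Single sites were then compared on the log2 scale, and a site was counted where the infarcted sample differed from the non-infarcted one by at least 1 the same way in both genotypes. In HpaII 3 of the 182 sites were higher and 3 lower, 1.65% each, where 0.881% and 0.693% of 819209 sites of the genome were. The higher ones were in Acadl, Cpt1a and Etfdh. The Acadl site, at chr1:66842023, had 168% HpaII in the Neil3-/- infarcted sample against 59.3% in the non-infarcted, and 121% in the wild-type infarcted sample against 43.7% in the non-infarcted. The Cpt1a site, at chr19:3339068, had 370.2% against 179% in the Neil3-/- infarcted and non-infarcted samples, and 324% against 136% in the wild-type ones, where the HpaII signal itself was 53.6 against 53.5 and the MspI signal 16.5 against 39.4. Before any scaling to library totals, the wild-type difference of that site thus lay in its MspI signal. The totals were also lower in the wild-type infarcted sample than in the non-infarcted one, 36951094 against 43508551 in HpaII and 35557834 against 43985354 in MspI. The Etfdh site, at chr3:79616104, had 23.7% against 10.9% in Neil3-/- and 69.7% against 20.2% in wild type, infarcted against non-infarcted. Its HpaII signal in the Neil3-/- non-infarcted sample was 4.48, below the 5th percentile of 4.72 in that library.

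The 3 lower sites were 2 in Cpt1b and 1 in Etfdh. The Cpt1b site at chr15:89420061 had 44.6% HpaII in the Neil3-/- infarcted sample against 134% in the non-infarcted, and 20.6% in the wild-type infarcted sample against 99.4% in the non-infarcted. Its log2 differences of -1.59 and -2.27 were the largest among the 6 sites, but its HpaII signal in the wild-type infarcted sample was 3.60, close to the lowest value of 3.16 listed in that library. The Cpt1b site at chr15:89421771 had 37.0% against 84.9% in Neil3-/- and 27.1% against 59.2% in wild type, infarcted against non-infarcted, over an MspI signal of 68.7 to 99.4, the strongest of the 6. Both lie inside the gene. The lower Etfdh site, at chr3:79610846, had 33.2% against 68.0% and 19.3% against 46.7% in the same order. Etfdh thus held 1 site in each direction, and its whole-gene values differed by -1.80 and 8.26 points.

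**Figure D4:**
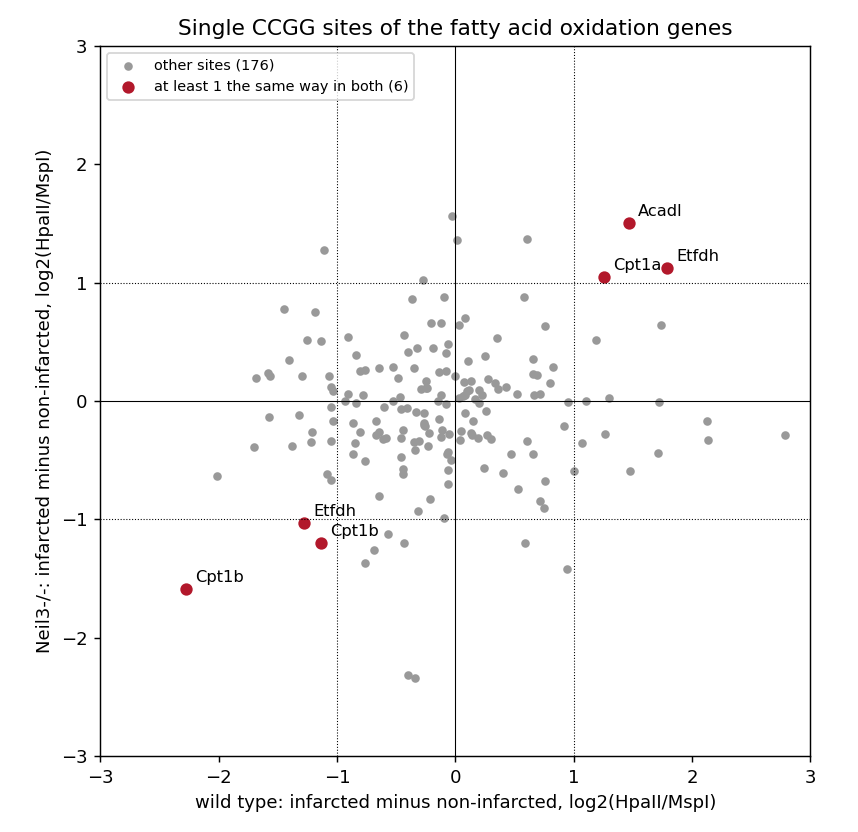
Infarcted minus non-infarcted difference in log2(HpaII/MspI) at 182 single sites, Neil3-/- on the vertical and wild type on the horizontal axis; dotted lines mark a difference of 1 and red points the 6 sites past it the same way in both genotypes. The 3 red points at the upper right are in Acadl, Cpt1a and Etfdh, and the 3 at the lower left in Cpt1b (2 sites) and Etfdh.

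In C+mC, no site was higher and 1 was lower in the infarcted samples of both genotypes, where 0.192% and 0.243% of all sites were. It was in Cpt1a, at chr19:3324989 and 1688 bases past the start, with 56.6% against 116% in Neil3-/- and 87.7% against 234% in wild type, infarcted against non-infarcted. Between genotypes, 1 site was higher in Neil3-/- in HpaII in both tissues and none was lower, where 0.764% and 0.56% of all sites were, and 0 sites differed in C+mC in either direction, where 0.382% and 0.145% did. The site, at chr19:3383718 near the far end of Cpt1a, had 28.7% HpaII in the Neil3-/- infarcted sample against 10.4% in the wild-type infarcted, and 42.4% in the Neil3-/- non-infarcted sample against 8.83% in the wild-type non-infarcted. The 2 wild-type HpaII signals there were 3.61 and 3.19, where the lowest values listed in those libraries over all sites were 3.16 and 2.19.

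A further 45 genes of fatty acid oxidation and its supply were measured beside the 10. In the infarcted against non-infarcted comparison in HpaII, 2 were higher and 1 lower by 20 points in Neil3-/-, where 6.82% and 2.82% of all genes were, and 5 were higher and 0 lower in wild type, where 12.1% and 3.28% were. The medians of the 45 were 2.77 and 4.94 points, against the 2.09 and 4.84 points over all genes. In C+mC 0 were higher and 0 lower in Neil3-/- (1.69% and 3.53% of all genes), and 0 were higher and 4 lower in wild type (2.12% and 16.9%). Between genotypes, 0 were higher and 5 lower in Neil3-/- in HpaII in infarcted tissue (4.42% and 6.15%), and 2 were higher and 0 lower in non-infarcted tissue (4.55% and 3.71%). In C+mC 2 were higher and 0 lower in infarcted tissue (3.55% and 2.38%), and 0 were higher and 2 lower in non-infarcted tissue (2.42% and 11.9%). Acad8, an acyl-CoA dehydrogenase of valine breakdown, passed 20 points in both genotypes and was alone in the list in doing so, with 159% HpaII in the Neil3-/- infarcted sample against 132% in the non-infarcted, and 166% in the wild-type infarcted sample against 143% in the non-infarcted. The genes whose 8 values lay nearest to the median of the 10 were Crat, Acad11 and Mlycd, with root mean square differences of 5.0, 5.5 and 6.9 points over both libraries and 4 samples. Mlycd is malonyl-CoA decarboxylase, which relieves the block that malonyl-CoA puts on Cpt1. Crat, the carnitine acetyltransferase, had 127.5% and 121% HpaII in the Neil3-/- infarcted and non-infarcted samples, against 127.5% and 114% in the wild-type pair.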

How the data were processed

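Genomic DNA of 4 heart samples was read by HMST-seq, with 3 libraries per sample. Per the labels' protocols, DNA was cut with HpaII, with MspI after glucosylation or with MspI, and short tags next to the cut were captured and sequenced. The deposited values are the authors' normalized signal per CCGG site and library. How the values were normalized, which aligner was used, and whether sites were filtered or samples pooled were points not given in the sources used here. The build is mm10 per the submitters' processing notes. The depth is unknown, so no interval or floor is given.

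File positions matched CCGG in RefSeq (GRCm38.p6) windows when 1 was added, and positions are printed that way. For each gene, signals of the sites listed in all 4 samples were summed over its span with 2 kb on either side, and HpaII and C+mC sums were divided by the MspI sum. The background was 16887 autosomal protein-coding genes with at least 5 sites. Differences of at least 20 percentage points were counted, and single sites with an MspI signal of at least 10 in each sample were counted at a log2 difference of 1. limma 3.58.1 (R 4.3.3) fitted genotype and infarction additively to log2 ratios of all genes, with Benjamini-Hochberg adjustment and a threshold of 0.05. It was tried on data simulated from its own fitted variances with an additive infarct effect. That does not show how it behaves where the infarct difference depends on genotype. Python 3.11.15 with pandas 2.3.3 made the tables and matplotlib 3.10.9 the figures.

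The 10 genes, the 45 further genes, the markers and the size rules were chosen with earlier results of these data known. All 10 genes are named. Sites are named where they were counted as shifted. Per gene, those of lowest and highest HpaII percentage are named among sites with an MspI signal of at least 10 in each sample. Of the 45 genes, the 3 nearest to the median of the 10 and those past 20 points in both pairs of samples are named. Alternatives were a filter on mean signal, the gene span alone, libraries set to equal totals, centring on the median gene, the median of sites, and leaving out the strongest site of each gene. No sample has a replicate. Exon annotation was not used here.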

Additional observations from a re-analysis of the deposited data

Results flagged for a closer look

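Cpt1b, the muscle carnitine palmitoyltransferase, had a C+mC difference between infarcted and non-infarcted tissue that was 12.8 points in Neil3-/- and -13.0 points in wild type, 25.8 points apart. It was picked out because the 2 differences had opposite signs and lay more than 20 points apart. The gap also passed 20 points for Acadvl (31.0 in HpaII and 27.9 in C+mC), and in HpaII for Acadm (21.3) and Cpt1b (20.6). In those the differences of both genotypes had the same sign. The share of all genes past such a gap is not given here. The wild-type difference uses the non-infarcted sample whose C+mC library stood apart. With 1 sample a group the difference between the genotypes was not tested.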

How the results depend on the processing

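No pairing of replicates was possible because each group holds 1 sample and no replicate numbers pair them. limma carries the other factor as a term, so its infarct effect is the mean of the infarct differences within each genotype. It gives no separate effect per genotype, and a difference between genotypes enters its error. No sample could be left out. Of 76 counts recomputed under the alternatives, 61 stayed within 1.5 times the main count and 15 did not. A count that stayed could hold other genes. For infarction in wild type, the gene past 20 points in C+mC over the gene span was Acadm (-27.7 points) and not Acadvl. In HpaII with the median of sites, Hadhb was past 20 points (-33.1 points) and Acadm was not (-6.88 points). The small medians of the 10 genes changed sign in several settings. For infarction in wild type the HpaII median of 0.582 points became -5.08 with the gene span alone, -3.95 with equal totals, -4.25 with centring, -4.84 with the median of sites and -0.205 without the strongest sites, and the C+mC median of -4.16 became 5.48 with the span. In Neil3-/- the medians of -4.22 in HpaII and -0.434 in C+mC became 1.75 with the median of sites and 1.90 with the span, and the C+mC one 0.622 without the strongest sites. For genotype the HpaII median of 3.21 in non-infarcted tissue became -2.09 with the span and -0.873 with equal totals, and the C+mC median of -1.05 in infarcted tissue 0.227 with the median of sites. Equal totals and centring on the median gene moved no count of genes past 20 points. Taking the median of per-site percentages gave 5 genes past 20 points for infarction in Neil3-/- in HpaII (2 higher and 3 lower). Among all genes 17.3% were then higher and 15.0% lower. The shares of all genes higher and lower follow each further count in brackets. In C+mC it gave 2 in Neil3-/- (8.70% and 10.5%) and 3 in wild type (6.93% and 26.5%). For genotype it gave 3 in infarcted tissue in HpaII (14.9% and 18.6%) and 3 in non-infarcted tissue in C+mC (7.86% and 24.2%). Leaving out the strongest site of each gene gave 1 (Hadhb) for infarction in Neil3-/- in HpaII (10.5% and 4.02%). It gave 2 in wild type in C+mC (2.34% and 21.9%). For genotype in C+mC it gave 0 in infarcted tissue (5.35% and 3.81%) and 2 in non-infarcted tissue (2.62% and 17.3%). The gene span alone gave 2 for genotype in infarcted tissue in C+mC (4.09% and 2.72%) and 0 in non-infarcted tissue in HpaII (4.47% and 3.55%). The filter on mean signal gave 2 for infarction in wild type in C+mC (2.06% and 16.5%). At a log2 difference of 1.5 there were 1 site for infarction in HpaII, 0 in C+mC and 0 for genotype in HpaII. The share of all sites past 1.5 is not given here, so these site counts cannot be set against the genome. Among the differences past 20 points, the direction turned for Acadvl in C+mC for infarction in wild type with the gene span alone (10.4 points). It also turned for Acadm in HpaII for genotype in non-infarcted tissue with the median of sites (2.60 points). Smaller differences changed sign as well. For example, Acadvl in HpaII for infarction in Neil3-/- went from -7.05 points to 41.9 with the median of sites. The cause of these moves was not tested beyond the construction of each alternative, which uses fewer or differently weighted sites. Neither the depth of a site nor the spread between animals can be read from these values, so every difference between 2 samples stands without an error.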
